A study of Schmidtea mediterranea with 48 samples.

Results

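Of the 26401 contigs counted in both heads and tails of the planarian *Schmidtea mediterranea*, 3 were followed here: *foxD* (dd_Smed_v4_23249), *wntP-1* (dd_Smed_v4_28398) and dd_20026 (dd_Smed_v4_20026). The study names them as genes of the body poles, *foxD* for the anterior pole, *wntP-1* for the posterior pole and dd_20026 for both. They were chosen for this reason, but with earlier results of these data known. Each had 1 row in the head table and 1 row in the tail table, and all 3 passed the filter on low counts in every fit. Asexual animals of strain CIW4 were fed double-stranded RNA against *nr4A*, a nuclear receptor gene that the study counts among its new pole genes, or against *unc-22* of *C. elegans*, which served as the control RNAi. Heads were cut off just behind the eyes and tails a short way from the tip, after 2, 3, 4 and 5 weeks of RNAi, from animals that had been starved for 7 days. This gave 48 libraries in 16 groups of 3, and 6 animals went into each library. All animals were otherwise uninjured, and the control animals received double-stranded RNA as well.

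The poles are small groups of muscle cells at the very ends of the head-to-tail axis, and they are thought to act as organizers that tell neighboring tissue where it lies. *foxD* encodes a forkhead transcription factor that planarians need to form anterior pole cells. *wntP-1*, also called *wnt1*, encodes a Wnt ligand of the posterior pole, where Wnt signaling promotes tail identity, and it is also switched on at wounds. dd_20026 is known only by its contig number, and no role is given to it here. The study detected *wnt1* in single cells of the tail tip with a pair of primers, which are shown, 5′ to 3′, because they are the sequence by which posterior pole cells were picked. They are printed in lower case throughout, with no part marked:
wnt1 forward primer: gtgacattatgctcaaaggatttcc
wnt1 reverse primer: acggacagtgtgataacttaaacg

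All 3 transcripts were rare. Libraries held 13800550 to 27491137 counts on contigs in heads and 13395084 to 42917781 in tails, and among these the 3 genes received between 7 and 115 counts each. *nr4A* itself was lower in all 12 *nr4A(RNAi)* libraries than in all 12 controls of the same tissue, which was so for 0.27% of contigs in heads and 0.133% in tails. It lay at 12.2 to 19.5 CPM (counts scaled by TMM to a common library size) against 23.9 to 28.3 in heads, and at 12.8 to 18.3 against 18.5 to 25.6 in tails. Of 10536 well-covered contigs, 435 were lower by more than 1 on the log2 scale in *nr4A(RNAi)* head replicate 1 of week 5 than in the other 2 libraries of its group, 595 were higher in replicate 3 of that week, and 612 were higher and 571 lower in *nr4A(RNAi)* tail replicate 1 of week 2. In the same way 316 were lower in *nr4A(RNAi)* head replicate 2 of week 4 and 266 in replicate 2 of week 2.

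The first question was whether each gene sat where its label puts it, which control animals answer. *foxD* had 27 to 83 counts in the 12 control heads, with a median of 58.5, and 7 to 35 counts in the 12 control tails, with a median of 15. Its level was 2.77 ± 0.67 CPM in heads and 0.784 ± 0.276 CPM in tails (SD, n = 12), and every control head lay above every control tail. Of all contigs, 18.3% separated in this way.

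*wntP-1* had 21 to 50 counts in control heads (median 34.5) and 34 to 92 in control tails (median 55.5). Its level was 1.78 ± 0.29 CPM in heads and 2.68 ± 0.52 CPM in tails (SD, n = 12), so that the posterior pole gene was higher in tails, but the heads and tails overlapped. *wntP-1* counts in heads were thus far from 0. *wnt11-2*, another Wnt gene of the tail tip and the tail marker used here, had 0 to 4 counts in control heads against 692 to 1589 in control tails.

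dd_20026 had 26 to 49 counts in control heads (median 36.0) and 11 to 25 in control tails (median 18.0). Its level was 1.84 ± 0.34 CPM in heads and 0.908 ± 0.305 CPM in tails (SD, n = 12), with the lowest head at 1.34 CPM and the highest tail at 1.39 CPM. It was therefore detected at both ends and was higher in heads.

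All 3 differences between control heads and control tails passed edgeR's quasi-likelihood test with Benjamini-Hochberg adjustment, as did 62.4% of the 20529 contigs tested. On the log2 scale, heads minus tails, the difference was 1.80 (standard error 0.15, adjusted p = 2.22e-13) for *foxD*, 1.04 (standard error 0.18, adjusted p = 5.38e-06) for dd_20026 and -0.58 (standard error 0.12, adjusted p = 3.75e-05) for *wntP-1*. The head and tail libraries carried library numbers of separate series and were counted in separate tables, so tissue and any difference in handling between the 2 sets cannot be told apart. The 6 head markers *notum*, *sFRP-1*, *ndl-4*, *ndl-5*, *fz5/8-4* and *ndk* summed to 832 to 908 CPM in control heads and 24.4 to 33.4 CPM in control tails.

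**Figure D1:**
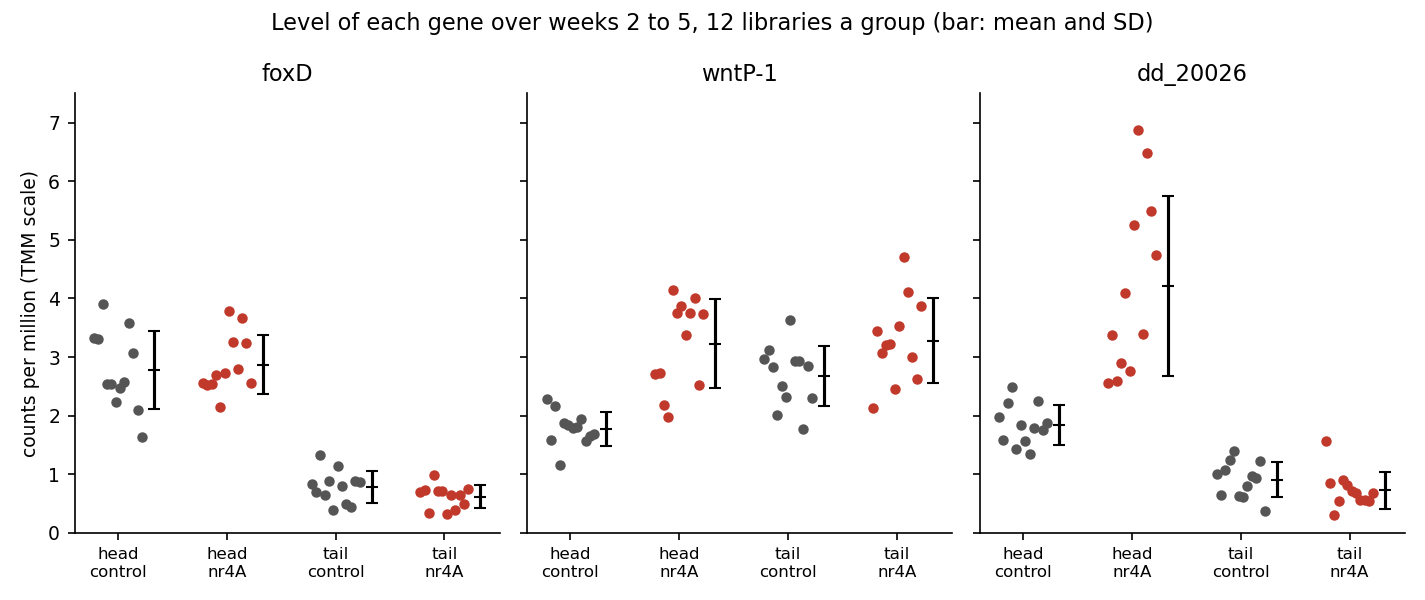
Level of *foxD*, *wntP-1* and dd_20026 in CPM (vertical axis) in control (gray) and *nr4A(RNAi)* (red) heads and tails. Each point is 1 library, 12 a group over weeks 2 to 5, and the bars give mean and SD. The dd_20026 points of *nr4A(RNAi)* heads, 2.56 to 6.88 CPM, lie above all control heads.

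The main comparison asked what *nr4A* RNAi did to the pole genes in heads. dd_20026 rose and *wntP-1* rose, whereas for *foxD*, the anterior pole gene, no change was detected over the 4 weeks. dd_20026 went from 1.84 to 4.21 CPM and *wntP-1* from 1.78 to 3.23 CPM as means over 12 libraries, and *foxD* stood at 2.77 and 2.87 CPM.

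At week 2 dd_20026 had 40, 35 and 47 counts in control heads against 51, 47 and 51 under *nr4A* RNAi. At week 3 the counts were 45, 26 and 33 against 57, 82 and 62. At week 4 they were 44, 26 and 36 against 110, 110 and 68, and at week 5 they were 49, 36 and 31 against 115, 107 and 89. Scaled for depth, the 3 *nr4A(RNAi)* heads lay above the 3 control heads in each of the 4 weeks, which was so for 0.357% of all contigs. In single weeks 5.57%, 9.48%, 9.74% and 11.7% of contigs were higher without overlap at weeks 2, 3, 4 and 5. Across weeks, the lowest of the 12 *nr4A(RNAi)* heads (2.56 CPM) lay above the highest of the 12 control heads (2.49 CPM), which was so for 0.143% of all contigs.

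The control level of dd_20026 stayed between 1.57 and 1.96 CPM as weekly means. The *nr4A(RNAi)* mean was 2.84 ± 0.47 CPM at week 2, 3.25 ± 0.73 at week 3, 5.18 ± 1.74 at week 4 and 5.58 ± 0.87 at week 5 (SD, n = 3). The spread was widest at week 4, where replicate 3 stood at 3.40 CPM and replicate 2 at 6.88 CPM.

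*wntP-1* at week 2 had 46, 35 and 46 counts in control heads against 54, 38 and 43 under *nr4A* RNAi, and these overlapped. At week 3 it had 21, 34 and 33 against 39, 83 and 84 counts, with replicate 1 of the *nr4A(RNAi)* heads well below the other two. At week 4 it had 50, 35 and 39 against 81, 54 and 75 counts, and at week 5 it had 34, 34 and 28 against 71, 49 and 70. After scaling, the groups did not overlap at weeks 3, 4 and 5, and 2.36% of contigs were higher without overlap in at least 3 of the 4 weeks. Of the 12 *nr4A(RNAi)* heads, 10 lay above the highest control head, a count for which the share over all contigs was not computed.

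From week 3 onward the *wntP-1* level of *nr4A(RNAi)* heads lay between 3.29 and 3.67 CPM as weekly means, against 1.63 to 1.84 CPM in controls. The means of *nr4A(RNAi)* tails lay between 2.88 and 4.11 CPM over the 4 weeks. *wnt11-2* had 0 to 5 counts in *nr4A(RNAi)* heads, which is near 0 beside its 675 to 1240 counts in *nr4A(RNAi)* tails. Summed over 12 heads it had 27 counts under *nr4A* RNAi against 11 in controls. It did not pass the filter for a test in heads, so a change there was not tested.

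*foxD* at week 2 had 67, 73 and 83 counts in control heads against 51, 35 and 50 under *nr4A* RNAi. Here all 3 *nr4A(RNAi)* libraries were lower, also after scaling, as were 4.87% of contigs in that week. At week 3 *foxD* had 46, 46 and 40 against 53, 43 and 61 counts, at week 4 it had 69, 50 and 72 against 79, 52 and 56, and at week 5 it had 67, 43 and 27 against 65, 63 and 48. The groups overlapped in these 3 weeks.

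Over the 24 head libraries, the mean of the 4 weekly log2 differences was tested with edgeR's quasi-likelihood test, which called 13% of 19607 contigs (7.82% higher, 5.22% lower) at an adjusted p under 0.05. The mean difference was 1.12 (standard error 0.13, adjusted p = 6.99e-06 in this edgeR fit) for dd_20026, a fold of 2.18. It was 0.84 (standard error 0.13, edgeR adjusted p = 1.65e-04) for *wntP-1*, a fold of 1.80. For *foxD* it was 0.05 (standard error 0.10, edgeR adjusted p = 0.744), with a 95% interval of -0.15 to 0.26, so that a mean change of *foxD* as large as that of the other two lies outside the interval. An exact two-sided permutation test of log2(CPM + 0.1) within weeks, which uses no model of the counts, was run for the 3 genes in both tissues. In heads the permutation p was 1.25e-05 for dd_20026, the smallest that its 160000 relabellings allow, 2.5e-05 for *wntP-1* and 0.570 for *foxD*.

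Leaving out week 5, the week of libraries that stand apart, the mean difference was 1.00 for dd_20026 (edgeR adjusted p = 0.00112) and 0.78 for *wntP-1* (edgeR adjusted p = 0.00605), while that of *foxD* changed sign to -0.08 (edgeR adjusted p = 0.748). Without *nr4A(RNAi)* replicate 2 of every week, which holds the 2 libraries of weeks 2 and 4 that stand apart, it was 0.99 for dd_20026 (edgeR adjusted p = 1.14e-04) and 0.85 for *wntP-1* (edgeR adjusted p = 6.31e-04). In bulk tissue, fewer cells of a type and less RNA per cell cannot be told apart, and neither can more cells and more RNA per cell.

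**Figure D2:**
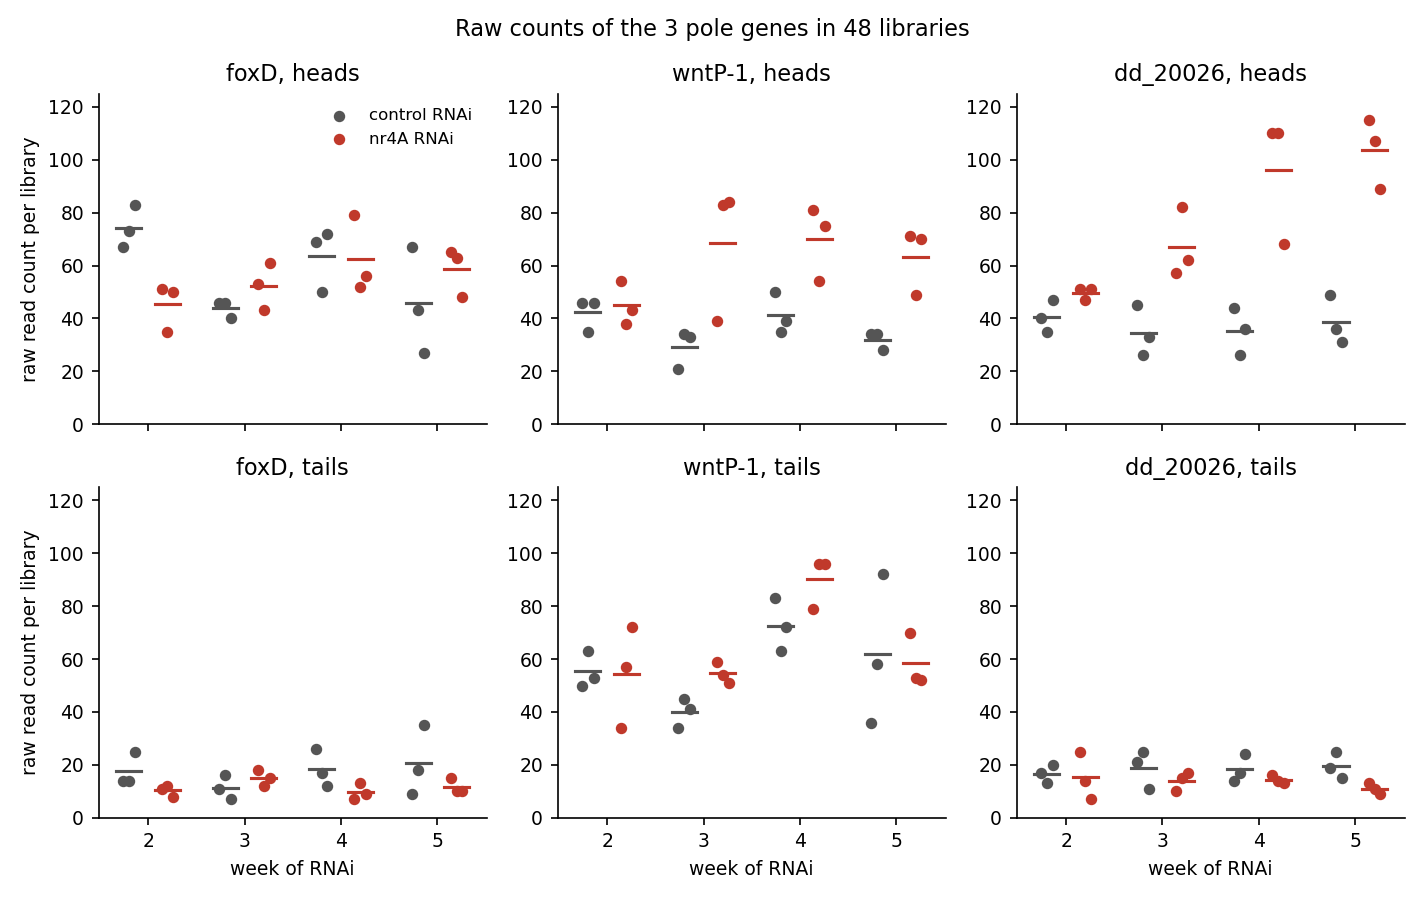
Raw read counts per library (vertical axis) of each gene by week of RNAi (horizontal axis), heads above and tails below, not scaled for depth. Each point is 1 library (gray control, red *nr4A* RNAi) and the bar is the mean of 3. In heads dd_20026 reached 89 to 115 counts at week 5 of *nr4A* RNAi against 31 to 49 in controls.

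Taken week by week, with 3 against 3 libraries in each fit, dd_20026 and *wntP-1* passed the edgeR test in heads at week 3 only. At week 3 the log2 difference of *wntP-1* was 1.03 (standard error 0.26, edgeR adjusted p = 0.0228) and that of dd_20026 was 0.76 (standard error 0.22, edgeR adjusted p = 0.0477), in a fit that called 5.25% of contigs. Both calls were lost when single libraries were left out. For *wntP-1* the edgeR adjusted p rose to between 0.0539 and 0.130 without control replicate 1, 2 or 3 or *nr4A(RNAi)* replicate 2 or 3, and for dd_20026 to between 0.150 and 0.228 without control replicate 2 or 3 or *nr4A(RNAi)* replicate 2. In a fit of all 24 head libraries the week 3 values were 0.142 for *wntP-1* and 0.462 for dd_20026 as edgeR adjusted p.

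The log2 differences at weeks 4 and 5 were larger than at week 3 for dd_20026 and similar for *wntP-1*, but did not pass the edgeR test. That of dd_20026 was 1.71 (standard error 0.29, edgeR adjusted p = 0.162) at week 4 and 1.51 (standard error 0.22, edgeR adjusted p = 0.126) at week 5. That of *wntP-1* was 0.99 (standard error 0.19, edgeR adjusted p = 0.223) and 1.07 (standard error 0.27, edgeR adjusted p = 0.203). These 2 weekly fits called 0.049% and 0.0111% of contigs, with a biological coefficient of variation of 14.9% and 27.5%, against 4.73% at week 3. In the fit of all 24 head libraries, dd_20026 passed at week 4 (edgeR adjusted p = 7.53e-04) and week 5 (edgeR adjusted p = 8.77e-04), and *wntP-1* at week 5 (edgeR adjusted p = 0.0112) but not at week 4 (edgeR adjusted p = 0.0605).

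Single libraries decided these weekly calls too. Without *nr4A(RNAi)* replicate 2 at week 4, the library with the highest dd_20026 level, both genes passed the weekly edgeR test, dd_20026 with a log2 difference of 1.46 (adjusted p = 0.00239) and *wntP-1* with 1.05 (adjusted p = 0.00455). Without *nr4A(RNAi)* replicate 3 at week 5 the edgeR values were 1.57 (adjusted p = 8.1e-05) and 0.95 (adjusted p = 0.00803). DESeq2 on the same 6 libraries called dd_20026 at week 4 (adjusted p = 2.62e-04) and week 5 (adjusted p = 3.53e-05), and *wntP-1* at week 4 (adjusted p = 0.0404) but not at week 5 (adjusted p = 0.0594). For week 3 DESeq2 called 721 contigs but gave neither gene an adjusted p, so it does not bear on the edgeR calls of that week.

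At week 2 none of the 3 genes passed, nor did any of the 18527 contigs tested (0%). By edgeR, 526 contigs had an unadjusted p under 0.05 in that week, and DESeq2 called 21. The week 2 log2 difference was -0.48 for *foxD* (standard error 0.18, edgeR adjusted p = 0.939), 0.32 for *wntP-1* (standard error 0.24, edgeR adjusted p = 0.939) and 0.53 for dd_20026 (standard error 0.23, edgeR adjusted p = 0.939).

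Whether the difference grew from week 2 to week 5 was tested within the fit of 24 head libraries, in which 0.27% of contigs passed. The log2 difference of week 5 exceeded that of week 2 by 0.93 for *foxD* (standard error 0.30, edgeR adjusted p = 0.248), by 0.95 for dd_20026 (standard error 0.35, edgeR adjusted p = 0.346) and by 0.72 for *wntP-1* (standard error 0.36, edgeR adjusted p = 0.518). None of these passed the threshold. For *foxD* the weekly differences were -0.48, 0.06, 0.19 and 0.47 at weeks 2, 3, 4 and 5, each with a standard error of 0.18 to 0.31. With each library of the week left out in turn, the *foxD* value ranged from 0.06 to 0.38 at week 4 and from 0.29 to 0.76 at week 5, the highest without control replicate 3 at week 4 and without control replicate 1 at week 5.

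**Figure D3:**
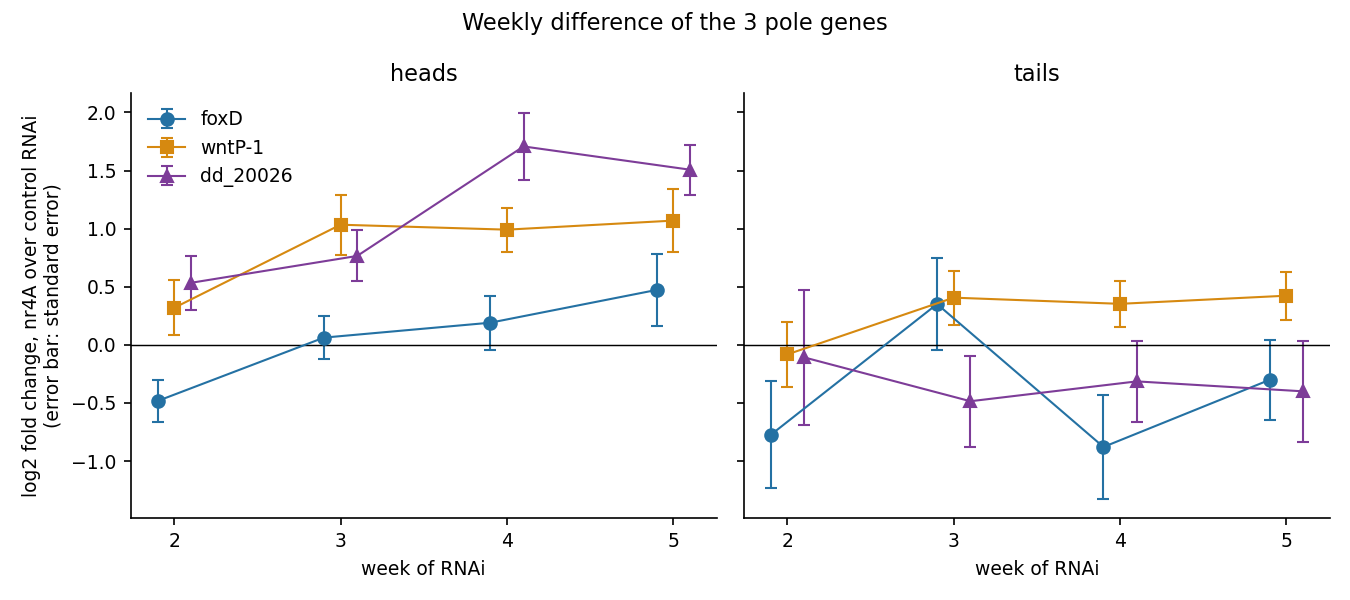
Log2 fold change of *nr4A* over control RNAi (vertical axis) by week (horizontal axis) in heads (left) and tails (right), from separate fits of 6 libraries. Points are *foxD* (circles), *wntP-1* (squares) and dd_20026 (triangles), and error bars are standard errors. In heads *wntP-1* stayed near 1 from week 3, dd_20026 reached 1.71 at week 4, and *foxD* lay between -0.48 and 0.47.

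In tails none of the 3 genes passed the edgeR test in any week or over all weeks. The weekly tail fits called 0%, 0.144%, 0.407% and 9.89% of contigs at weeks 2, 3, 4 and 5. For week 2, where edgeR called none, 239 contigs had an unadjusted p under 0.05 and DESeq2 called 6. *wntP-1*, the gene with the highest counts there, had 50, 63 and 53 counts in control tails and 34, 57 and 72 in *nr4A(RNAi)* tails at week 2. At week 3 it had 34, 45 and 41 against 59, 54 and 51, at week 4 it had 83, 63 and 72 against 79, 96 and 96, and at week 5 it had 36, 58 and 92 against 70, 53 and 52. Replicate 3 of week 5 held 42917781 counts on contigs in the control tail and 13395084 in the *nr4A(RNAi)* tail. Raw tail counts of that week are therefore not comparable between the groups for any of the 3 genes. Scaled for depth, the week 5 mean of *wntP-1* was 2.30 CPM in controls and 3.17 CPM under *nr4A* RNAi. After scaling, the groups overlapped in every week, whereas at week 5 14.3% of contigs were higher and 13.1% lower without overlap.

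Tail counts of dd_20026 were 17, 13 and 20 against 25, 14 and 7 at week 2 and 21, 25 and 11 against 10, 15 and 17 at week 3, with control libraries given first. They were 14, 17 and 24 against 16, 14 and 13 at week 4, and 19, 25 and 15 against 13, 11 and 9 at week 5. The 2 groups overlapped in every week after scaling, and at such counts a small difference was not detectable.

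*foxD* was as scarce in tails, with 14, 14 and 25 counts in controls and 11, 12 and 8 in *nr4A(RNAi)* tails at week 2. The counts were 11, 16 and 7 against 18, 12 and 15 at week 3, 26, 17 and 12 against 7, 13 and 9 at week 4, and 9, 18 and 35 against 15, 10 and 10 at week 5. At week 2 the raw counts of the 2 groups did not overlap, but after scaling they overlapped in every week.

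Over the 24 tail libraries the edgeR fit called 3.08% of 19601 contigs. The mean log2 difference was 0.28 for *wntP-1* (standard error 0.11, 95% interval 0.06 to 0.50, edgeR adjusted p = 0.246). It was -0.40 for *foxD* (standard error 0.20, 95% interval -0.79 to 0.0045, edgeR adjusted p = 0.460) and -0.34 for dd_20026 (standard error 0.23, 95% interval -0.80 to 0.11, edgeR adjusted p = 0.664). The exact permutation test within weeks gave an unadjusted p = 0.0130 for *wntP-1*, 0.139 for *foxD* and 0.160 for dd_20026. The *wntP-1* value did not hold in permutations without control replicate 3 (p = 0.0515) or without *nr4A(RNAi)* replicate 2 (p = 0.0684).

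Leaving out *nr4A(RNAi)* replicate 1 at week 2, the tail library that stood apart, turned the week 2 difference of *wntP-1* to 0.12 (edgeR adjusted p = 0.881) and left -0.75 for dd_20026 (edgeR adjusted p = 0.618). Without week 2, the mean tail difference of *wntP-1* was 0.39 (edgeR adjusted p = 0.0577). The difference of week 5 minus week 2 was 0.52 for *wntP-1*, 0.51 for *foxD* and -0.35 for dd_20026, with edgeR adjusted p of 0.647, 0.780 and 0.861, in a fit that called 0.0561% of contigs.

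Heads and tails were then compared directly. The mean log2 difference between *nr4A(RNAi)* and control was larger in heads than in tails by 1.46 for dd_20026 (standard error 0.26, edgeR adjusted p = 0.00105), in a fit of 48 libraries that called 1.25% of 20529 contigs. Without control replicate 2 of both tissues this value was 1.25 and no longer passed (edgeR adjusted p = 0.0595). For *wntP-1* heads exceeded tails by 0.56 (standard error 0.16, 95% interval 0.25 to 0.88, edgeR adjusted p = 0.0756), and for *foxD* by 0.45 (standard error 0.22, 95% interval 0.02 to 0.87, edgeR adjusted p = 0.461). For these 2 genes the response was not shown to differ between the ends.

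The ratio of 2 of the genes within 1 library does not depend on how libraries are scaled. In heads the ratio of dd_20026 to *foxD* counts was 0.479 to 1.15 in the 12 control libraries and 1.00 to 2.12 in the 12 *nr4A(RNAi)* libraries, and within each week the 2 groups did not overlap. How often ratios of other contigs separate in this way was not computed. The ratio of *wntP-1* to *foxD* in heads was 0.456 to 1.04 in controls and 0.736 to 1.93 in *nr4A(RNAi)* libraries. That of dd_20026 to *wntP-1* in heads spanned 0.743 to 2.14 in controls and 0.738 to 2.18 in *nr4A(RNAi)* libraries, nearly the same range.

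These ratios were chosen after the counts were seen, and an exact permutation test within weeks was run on the log2 ratio for the 3 pairs in both tissues, with Benjamini-Hochberg adjustment over these 6 tests. In heads the mean log2 ratio differed by 1.06 for dd_20026 to *foxD* (permutation p = 1.25e-05, adjusted 7.5e-05), by 0.77 for *wntP-1* to *foxD* (permutation p = 2.25e-04, adjusted 6.75e-04) and by 0.29 for dd_20026 to *wntP-1* (permutation p = 0.120, adjusted 0.144). The last did not pass. In tails the ratio of *wntP-1* to *foxD* was also higher under *nr4A* RNAi, by 0.63 (permutation p = 0.00633, adjusted 0.0127). At tail week 4 this ratio was 3.19 to 6.0 in controls against 7.38 to 11.3, and at week 5 it was 2.63 to 4.0 against 4.67 to 5.3. At weeks 2 and 3 the groups overlapped. The ratio rests on *foxD* counts of 7 to 35 per tail library, and how often ratios of other contigs separate in this way was not computed. The tail differences of the other two ratios were -0.0032 for dd_20026 to *foxD* (permutation p = 0.990, adjusted 0.990) and -0.63 for dd_20026 to *wntP-1* (permutation p = 0.0362, adjusted 0.0543), and neither passed after adjustment. The ratios compare the same contigs between libraries, and contig lengths were not used to compare one gene with another.

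The 3 genes were set beside 13 other pole genes that the study names. In heads 12 of the 13 could be tested, of which 2 rose, 1 fell and 9 did not pass (7.82% and 5.22% of all contigs tested rose and fell), with a median log2 difference of 0.09 against -0.01 over all contigs tested. In tails 12 could be tested, of which 3 rose and 9 did not pass (3.08% of all contigs changed in either direction), with a median of 0.08 against 0.00 over all contigs.

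Among them, *notum*, which encodes a secreted Wnt inhibitor of the anterior pole, had 92 to 193 counts in control heads and 113 to 220 in *nr4A(RNAi)* heads. Its mean log2 difference was 0.29 in heads (standard error 0.08, edgeR adjusted p = 0.0224) and 0.52 in tails (standard error 0.10, edgeR adjusted p = 0.00493). The head value no longer passed without control replicate 1 or 3 or *nr4A(RNAi)* replicate 1 or 2, or without week 5 (edgeR adjusted p between 0.0509 and 0.177), nor the tail value without control replicate 3 or *nr4A(RNAi)* replicate 3 (0.0624 and 0.0644).

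*musculin*, named for a transcription factor, had 4 to 15 counts in control heads and 11 to 29 in *nr4A(RNAi)* heads, a mean log2 difference of 1.04 (standard error 0.21, edgeR adjusted p = 0.00223). It was the other gene of the list, beside *notum*, that rose in heads, and in tails it had 0 to 5 counts and was not tested. *zic-1*, a zinc finger transcription factor gene of the anterior pole, fell by 0.22 on the log2 scale in heads (standard error 0.05, edgeR adjusted p = 0.00997), a call lost without control replicate 2 or *nr4A(RNAi)* replicate 2 or without week 5 (edgeR adjusted p = 0.103, 0.0508 and 0.0550).

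In tails *kallmann1*, which encodes a predicted secreted factor and was reported at both poles like dd_20026, had 72 to 203 counts in controls and 73 to 151 in *nr4A(RNAi)* libraries. Scaled for depth it rose by a log2 difference of 0.33 (standard error 0.07, edgeR adjusted p = 0.0140), whereas in heads its difference was 0.09 (edgeR adjusted p = 0.555). The tail call was lost without control replicate 2 or 3, without *nr4A(RNAi)* replicate 3 or without week 2 (edgeR adjusted p between 0.0743 and 0.192). *wnt11-2* rose in tails by a log2 difference of 0.19 (standard error 0.05, edgeR adjusted p = 0.0469), a call that held under 4 of 12 alternatives. *pitx* and *islet1*, transcription factor genes that the study ties to both poles, did not pass in either tissue, with tail differences of -0.03 and -0.01. The mean level of *islet1* was 40.3 CPM in control heads and 12.1 CPM in control tails.

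**Figure D4:**
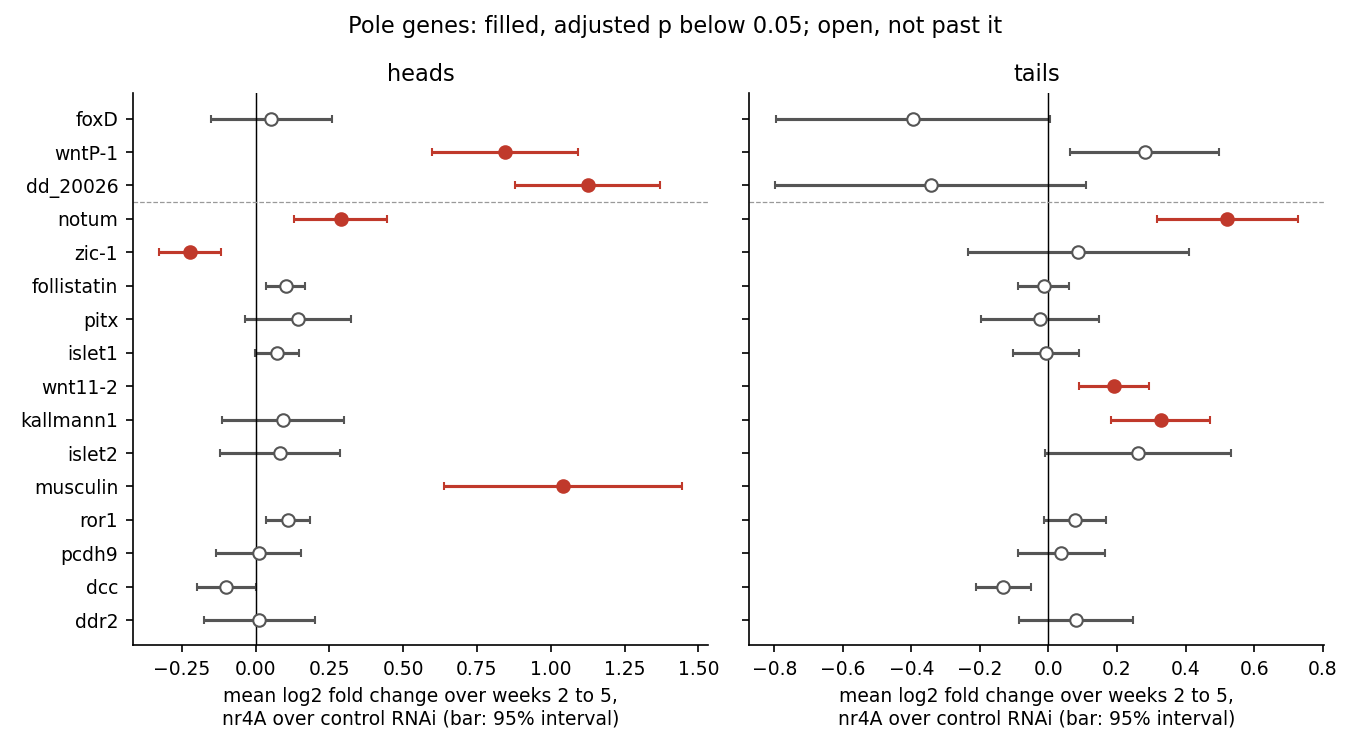
Mean log2 fold change over weeks 2 to 5, *nr4A* over control RNAi (horizontal axis), of the 3 genes above the dashed line and 13 other pole genes below it, in heads (left) and tails (right). Bars are 95% intervals, and filled red points passed an edgeR adjusted p of 0.05. In heads dd_20026 (1.12), *musculin* (1.04) and *wntP-1* (0.84) lie apart from the other genes. The axes of the 2 panels differ.

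Markers of other cells and regions moved with the RNAi in the same heads, where 7.82% of all contigs tested rose and 5.22% fell. Of the 6 head markers 5 rose and 1, *ndl-5*, fell (a log2 difference of -0.69), and their summed level was 832 to 908 CPM in controls and 801 to 966 CPM in *nr4A(RNAi)* heads. The study also reported *ndl-5* as lowered in heads by *nr4A* RNAi, and changed expression domains for *notum*, *sFRP-1*, *ndl-4* and *ndk*. One of these markers, *notum*, is also among the other pole genes above. Of 11 collagen contigs of muscle 9 fell and none rose, with a sum of 10215 to 13285 CPM in controls and 6965 to 11439 in *nr4A(RNAi)* heads. The study counted collagens among the muscle genes that depend on *nr4A*, and at 4 weeks it saw unchanged numbers of collagen-positive cells. The fall of these contigs therefore does not give the amount of muscle. Of 7 contractile protein contigs 4 fell and none rose, with sums of 9434 to 12233 and 7268 to 9329 CPM. No marker of these 3 lists was at 0 in any library.

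The neuronal gene *pc2* was at 463 to 575 CPM in control heads and 517 to 651 CPM in *nr4A(RNAi)* heads, a log2 difference of 0.15 that passed the edgeR test. The epidermal gene *vim* was at 457 to 1094 and 265 to 546 CPM, a log2 difference of -0.68 that also passed. From these same animals the study reported *vim* among the genes lowered by *nr4A* RNAi in heads and tails. Its fall therefore cannot be read as a change in the amount of epidermis. In tails, where 3.08% of contigs changed in either direction, 5 of 11 collagen contigs, 1 of 7 contractile contigs and *vim* (a log2 difference of -1.03) fell, while *pc2* did not pass. The part of these shifts in the results for *wntP-1* and dd_20026 was not tested.

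As a description, the contigs whose log2 CPM ran most like that of each gene over the 24 head libraries were sought among 19606 contigs. For dd_20026 they were dd_5690, dd_19949 and dd_15243, with Pearson r of 0.93, 0.91 and 0.90. For *wntP-1* they were dd_17064, dd_9629 and *fz5/8-4* (dd_11823), the last a Wnt receptor gene of the head, with r of 0.83, 0.82 and 0.82. For *foxD* the 3 highest r were lower, at 0.77, 0.73 and 0.69 for dd_21742, dd_26348 and dd_54490.

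Over the same 24 head libraries dd_20026 and *wntP-1* had r = 0.76 with each other, and dd_20026 and *nr4A* had r = -0.92. *foxD* had r = 0.24 with *wntP-1* and 0.32 with dd_20026. In tails the r of dd_20026 with *wntP-1* was -0.35, that of dd_20026 with *nr4A* was 0.23, and the highest r of any contig was 0.63 for *foxD*, 0.80 for *wntP-1* and 0.74 for dd_20026. The points of each correlation share the RNAi groups, the weeks and the sequencing depth. At weeks 2, 4 and 5, *nr4A(RNAi)* heads with the largest share of counts outside contigs had the most dd_20026 and least *nr4A*. At week 3 this was not so, as replicate 1 had the largest share (13.7%) and replicate 2 the most dd_20026 and least *nr4A*.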

How the data were processed

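RNA from heads and tails was made into polyA libraries and sequenced. The authors trimmed reads with Trimmomatic 0.32 after CASAVA 1.7.0, mapped them with bowtie to the dd_Smed_v4 transcriptome and deposited whole-number counts per contig, without normalization, in 1 table per tissue. The 2 deposited tables of the authors' own DESeq comparisons hold their group means, ratios and p-values and were not used. Rows of a contig number were summed, and head rows that name no contig, such as mitochondrial RNA (12.4 to 18.8% of head counts), were left out. In *nr4A(RNAi)* heads of week 5 this share was 18.8% in replicate 1 and 16.8% in replicate 2. In *nr4A(RNAi)* replicate 2 it was 17.4% at week 4 and 16.8% at week 2, and all other heads lay at 12.4 to 13.7%. These high-share libraries had the highest dd_20026 and the lowest *nr4A* levels of their week. A link was not tested, and no fit left all of them out together.

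Columns were assigned to samples by tissue table, RNAi, week and replicate number. Counts were scaled by TMM, filtered with filterByExpr (minimum count 10, minimum total 15) and tested by edgeR 4.0.16 (R 4.3.3) in quasi-likelihood fits of 6 libraries (weekly), 24 (mean of weeks, week 5 minus week 2) or 48 (heads against tails), with p-values adjusted over all contigs tested and a threshold of 0.05. Levels are CPM on the scale of 48 libraries, and 95% intervals are normal intervals from the standard error. Exact permutation tests of single genes relabelled libraries within weeks, with a pseudocount of 0.1 CPM. A test of 3 against 3 libraries by permutation cannot go below p = 0.1, so none was run within a week. Counting error limits values of a few counts most. The scripts were tested on simulated data.

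The named genes were the 3 members, *nr4A*, *notum*, other pole genes of the study past the threshold in a tissue's mean difference, and the 3 contigs most like each member. *pitx* and *islet1* were named outside this rule after their values were seen. The members and lists were chosen with earlier results of these data known. Muscle lists came from the study's table of *nr4A*-positive muscle. Alternatives were DESeq2 size factors, no filter, DESeq2 1.42.0, a replicate block, 1 fit per tissue, rows as deposited, another pseudocount (0.5 CPM), total counts and each replicate left out. Leaving out weeks or libraries that stand apart, the within-library ratios and a block of head with tail were chosen after seeing the data.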

Additional observations from a re-analysis of the deposited data

Results flagged for a closer look

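The response of dd_20026 to *nr4A* RNAi differed between heads and tails by a test of the difference itself, with a mean log2 difference that was 1.46 higher in heads (standard error 0.26, edgeR adjusted p = 0.00105, past the threshold in 10 of 11 alternatives). All 12 *nr4A(RNAi)* heads lay above all 12 control heads, while in tails 1 of 12 *nr4A(RNAi)* libraries lay above the highest control and 1 below the lowest. Tissue and any difference in handling between the separately numbered head and tail libraries cannot be told apart.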

How the results depend on the processing

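The mean differences of *wntP-1* and dd_20026 in heads, and the control head against tail differences of all 3 genes, kept their direction and passed the threshold under every alternative run (12 and 10 each). The mean difference of *foxD* in heads, near 0, changed sign to -0.0813 over weeks 2 to 4 only, -0.0228 with 2 *nr4A(RNAi)* libraries of week 5 left out and -0.0724 in the permutation over weeks 2 to 4. With each replicate left out it ranged from -0.020 to 0.0950, and in the permutation from -1.43e-04 to 0.12. Left-out replicates also gave ranges of 1.25 to 1.60 for dd_20026 heads minus tails, 0.23 to 0.34 for *wntP-1* in the tail permutation, -0.91 to 0.35 for week 5 minus week 2 of dd_20026 in tails, -0.00746 to 0.158 for *foxD* in heads at week 3, and -0.25 to 0.12 for *wntP-1* and -0.75 to 0.32 for dd_20026 in tails at week 2. DESeq2 called *wntP-1* heads minus tails (0.57, adjusted p = 0.0381).

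Counts of contigs called moved more, and the cause was not tested. DESeq2 called 21, 148 and 806 at head weeks 2, 4 and 5, 6, 77 and 139 at tail weeks 2, 3 and 4, 280 and 87 for week 5 minus week 2 in heads and tails, and 397 for heads minus tails. One fit of 24 libraries called 6, 48, 218 and 2546 at head weeks 2 to 5 and 13, 51 and 334 at tail weeks 2, 3 and 5. With no filter 0 were called at head week 5. The mean over fewer weeks called 660 in heads and 1253 in tails, and 1680 in heads without the 2 libraries of week 5.

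With the replicate block 1579 contigs were called for the mean in heads, 393 in tails, 148 for heads minus tails, 0 and 4 for week 5 minus week 2, 0 and 0 at head weeks 4 and 5, and 17 at tail week 3. It ended the call of dd_20026 in heads at week 3 (0.77, edgeR adjusted p = 0.0705) and of *wnt11-2* in tails (0.19, edgeR adjusted p = 0.0764). Of 24 same-numbered *nr4A(RNAi)* and control pairs 12 correlated above 0.1 (r from -0.38 to 0.37) and 13 correlated best with their own number among 3 candidates. These values do not settle whether the numbers mark pairs, and the main fits did not take them as pairs. The labels do not say whether a head and a tail library of the same number share animals, and the fit of 48 libraries treats them as independent. Of 24 such pairs 12 correlated above 0.1 (r from -0.85 to 0.73) and 11 correlated best with their own number. Among these were all control pairs of weeks 3 and 4, with r from 0.15 to 0.39. With a head with tail replicate block, added after seeing the data, 155 contigs were called for heads minus tails and dd_20026 stayed past the threshold (1.46, edgeR adjusted p = 0.0068).

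With each replicate left out, called contigs ranged over 0 to 64, 511 to 1033, 0 to 610 and 0 to 11190 at head weeks 2 to 5, 0 to 66, 2 to 153, 18 to 183 and 802 to 2012 at tail weeks 2 to 5, 974 to 9853 and 304 to 1974 for the mean in heads and tails, 0 to 2235 and 3 to 26 for week 5 minus week 2, and 84 to 772 for heads minus tails. The values of 9853 for the mean in heads and 11190 at head week 5 came without *nr4A(RNAi)* replicate 3. At 7 to 35 counts per library, *foxD* and dd_20026 in tails are limited by depth.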
